A study of Mus musculus with 2 samples.

Results

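Bile acid synthesis was followed through 10 hepatic enzymes, taken as every probe set annotated to Cyp7a1, Cyp8b1, Cyp27a1, Cyp7b1, Cyp39a1, Hsd3b7, Akr1d1, Amacr, Slc27a5 or Baat. These were 16 of the 45101 probe sets on the array and 10 of the 18193 genes with a probe set of their own. Livers came from mice given antagomir-122, a cholesterol-linked oligonucleotide that silences the liver microRNA miR-122, or mm-antagomir-122, its scrambled control. Both groups received 80 mg/kg body weight per day on 3 days and were killed 24 h after the last injection, so the controls also carried an antagomir. RNA of 3 livers was combined for each array, and there was 1 array per group. Strain, sex, age and time of day are not given in the sources used here.

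Bile acids are made from cholesterol in hepatocytes, which secrete them into bile for fat absorption, and this is the main route by which the body disposes of cholesterol. The classic pathway opens with the hydroxylation of cholesterol by Cyp7a1, and Cyp8b1 then adds the hydroxyl group that makes cholic acid. The alternative pathway opens with oxidation of the sterol side chain by Cyp27a1, followed by Cyp7b1, while Cyp39a1 hydroxylates the oxysterol 24-hydroxycholesterol. All routes share the ring-modifying enzymes Hsd3b7 and Akr1d1, the racemase Amacr of side-chain shortening, and the ligase Slc27a5 and transferase Baat that join bile acids to taurine or glycine. Bile acids restrain their own synthesis through the receptor FXR (Nr1h4) and the repressor SHP (Nr0b2).

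Signals were linear MAS5 intensities, scaled by the authors to a common mean on both arrays. The lowest and highest signals were 0.1 and 34477 on the antagomir-122 array and 0.1 and 34506 on the mm-antagomir-122 array. A probe set was read where its mean log2 signal over both arrays reached the 60th percentile of the array, which corresponds to a signal of 238, and 10003 genes had one. With 1 array per group there is no replicate error and no test. As a yardstick, the ratios of 2 probe sets for the same gene differed with a spread of 0.28 on the log2 scale over 3860 genes, and of 0.23 over 1812 of the brightest 3334 genes, among which all 10 enzymes lay. A log2 ratio of 0.23 is 1.17-fold. The spiked hybridization controls were lower on the antagomir-122 array, with a median log2 ratio of -0.27 over 18 probe sets (SD 0.18), 17 of which lay below 0. Scaling on them would add 0.27 to every log2 ratio, so each direction below is relative to the bulk of the genes.

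All 10 enzymes had a probe set above the floor of 238. Of the 16 probe sets, 14 were above it, and 6 enzymes rested on a single one. The 2 under it, with signals of 44.1 and 16.5 for Cyp7b1 and of 9.2 and 24.6 for Cyp27a1 (antagomir-122 first in each pair), were too dim to read.

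The cytochrome P450 enzymes of the classic pathway were higher in the antagomir-122 pool, and those of the alternative pathway were mixed. The shared enzymes other than Akr1d1 stayed near the level of the control pool. Cyp8b1 and Cyp7a1 were the 2 enzymes at least 1.5-fold higher, and 0 of 10 were at least 1.5-fold lower. Of all 10003 genes, 5.12% lay past 1.5-fold upwards and 2.62% past it downwards, and of the brightest 3334 these shares were 2.55% and 1.05%. At 1.4-fold 3 enzymes were higher, against 8.16% of all genes, and at 2-fold 1 was, against 0.83%. The median log2 ratio of the 10 enzymes was -0.04, with 4 above 0 and 6 below. Over all genes the median was 0.00, with 50.3% above 0 and 49.6% below. The set as a whole therefore sat at the level of the array, and its differences lay in a few members.

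**Figure D1:**
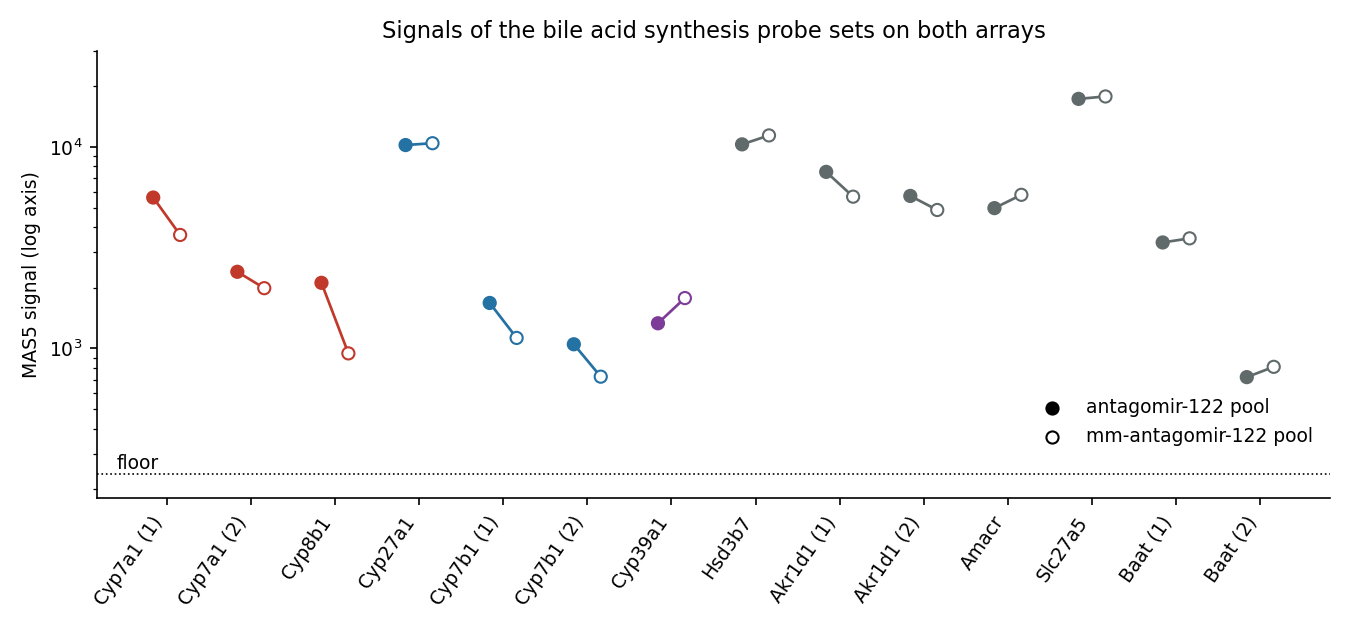
MAS5 signals, on a log axis, of the 14 probe sets above the floor. Filled points are the antagomir-122 pool and open points the mm-antagomir-122 pool, 1 array each, joined by a line. (1) and (2) are the brighter and second probe set of a gene, and red, blue, purple and grey are the classic pathway, the alternative pathway, Cyp39a1 and the shared steps. The line of Cyp8b1 is the steepest, with 2115 in the antagomir-122 pool and 944.5 in the mm-antagomir-122 pool.

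Cyp8b1, the sterol hydroxylase that sets how much cholic acid is made, had the highest ratio of the 10. Its single probe set (1449309_at) had a signal of 2115 in the antagomir-122 pool and 944.5 in the mm-antagomir-122 pool, 2.24-fold higher (log2 1.16). That placed it 42nd from the top among 10003 genes. The difference was several times the spread between probe sets of like brightness, but no second probe set checks it.

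Cyp7a1, the rate-limiting enzyme of the classic pathway, was also higher on both of its probe sets. The brighter (1438743_at) had 5606 in the antagomir-122 pool and 3656 in the mm-antagomir-122 pool, 1.53-fold higher (log2 0.62). The other (1422100_at) had 2399 and 1990 in the same order of pools, 1.21-fold higher (log2 0.27). Their mean was 0.44, or 1.36-fold, so whether Cyp7a1 passes 1.5-fold depends on the probe set. The gap between them, once divided by the square root of 2, was 0.25 and close to the usual spread of 0.23.

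The alternative pathway was not uniform. Cyp27a1, the mitochondrial enzyme that opens it, had 10212 in the antagomir-122 pool and 10428 in the mm-antagomir-122 pool, a log2 ratio of -0.03. Cyp7b1, the oxysterol hydroxylase that follows, had 1680 in the antagomir-122 pool and 1127 in the mm-antagomir-122 pool on its brightest probe set (1421074_at). This was 1.49-fold higher (log2 0.58), just inside the 1.5-fold limit as deposited, and just past it with quantile normalization (0.59) and loess correction (0.60). Its second probe set (1421075_s_at), with 1048 and 723.8 in the same order of pools, was 1.45-fold higher (log2 0.53). The 2 probe sets of Cyp7b1 thus gave nearly the same ratio, although the suffix _s marks the second as open to cross-hybridisation.

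Cyp39a1, which acts on the oxysterol 24-hydroxycholesterol, was the enzyme with the lowest ratio. Its single probe set had 1332 in the antagomir-122 pool and 1777 in the mm-antagomir-122 pool, 1.33-fold lower (log2 -0.42). A ratio lower than this was found for 7.41% of the genes. Cyp7a1, Cyp7b1 and Cyp39a1 all hydroxylate the same ring position on different substrates, and their ratios ran from -0.42 to 0.62, so enzymes of this one reaction type did not move together.

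Set against each other, the classic pair (Cyp7a1 and Cyp8b1) had a mean log2 ratio of 0.89 and the alternative pair (Cyp27a1 and Cyp7b1) one of 0.27, a difference of 0.62. The differences within the pairs were nearly as large. Cyp8b1 exceeded Cyp7a1 by 0.55 and Cyp7b1 exceeded Cyp27a1 by 0.61, while Cyp7a1 and Cyp7b1, from different pathways, were 0.04 apart. With 2 genes per pathway and 1 array per group, the contrast between pathways was about the size of the contrasts inside them.

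**Figure D2:**
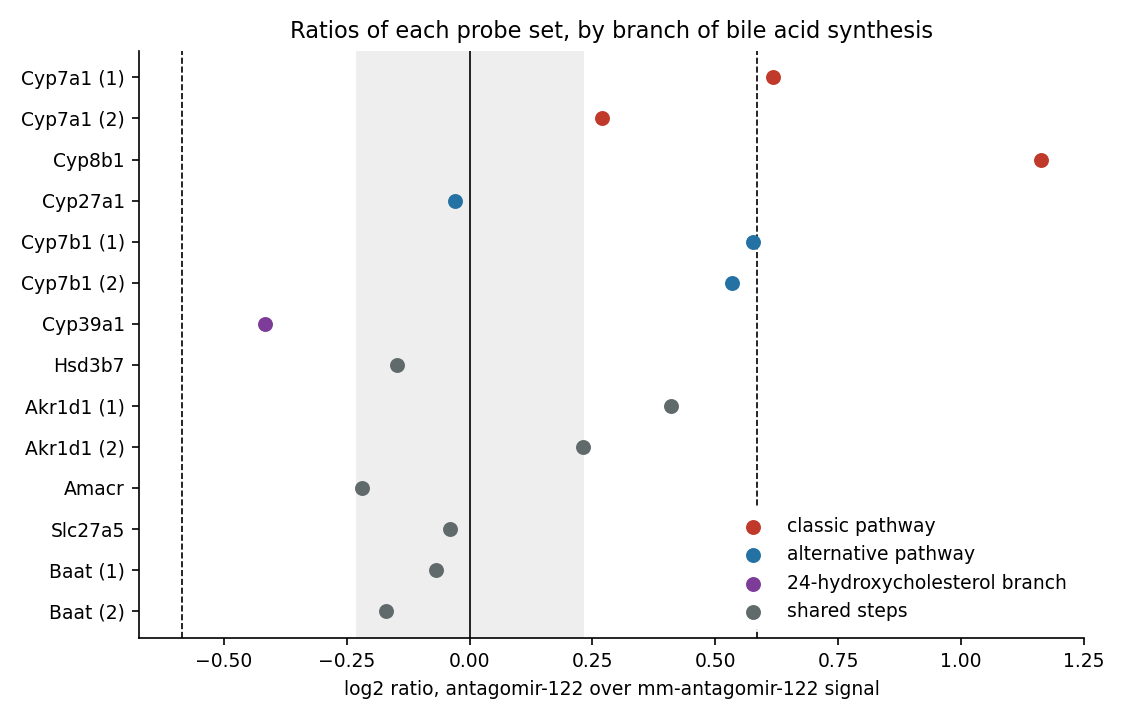
Log2 ratio of the antagomir-122 over the mm-antagomir-122 signal for each of the 14 probe sets above the floor, coloured by branch of the pathway. The grey band is the spread of 0.23 between probe sets of bright genes on either side of 0, and dashed lines mark 1.5-fold. Cyp8b1 and the brighter probe set of Cyp7a1 lie past the dashed line, Cyp7b1 lies just inside it, and Cyp39a1 is lowest at -0.42.

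Of the 5 shared enzymes, Akr1d1 was the only one with a ratio above 0 in the values as deposited. Akr1d1, the reductase that saturates the sterol ring, had 7516 in the antagomir-122 pool and 5661 in the mm-antagomir-122 pool on its brighter probe set, 1.33-fold higher (log2 0.41). Its second probe set had 5709 and 4862 in the same order of pools, 1.17-fold higher (log2 0.23). Both probe sets were thus higher, by amounts at or above the spread of 0.23.

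The other four shared enzymes lay within the spread of 0 on every probe set. Hsd3b7, the ring dehydrogenase that precedes Akr1d1, had 10293 in the antagomir-122 pool and 11400 in the mm-antagomir-122 pool (log2 -0.15). Amacr, which flips the configuration of the side chain before it is shortened, had 4967 and 5783 in the same order (log2 -0.22). Hsd3b7 and Amacr were therefore slightly lower by amounts that this array pair cannot separate from measurement spread. Slc27a5, the bile acid CoA ligase, had 17307 in the antagomir-122 pool and 17793 in the mm-antagomir-122 pool (log2 -0.04). Slc27a5 was the one enzyme with signals above 16000, where the array may no longer separate levels. Baat, which attaches the amino acid, had 3355 and 3516 in the same order on its brighter probe set (log2 -0.07), and 720.0 and 809.7 on the other (log2 -0.17).

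Core promoters could be shown for 4 of the enzymes. Sequences are from RefSeq on GRCm38.p6 and cover the 250 bases before the transcription start on the strand of the gene. Those of Cyp8b1 and Akr1d1, which were higher, are printed beside that of Cyp27a1, which opens the alternative pathway and was level. Cyp8b1 lies at chr9:121916306-121916555 on the minus strand, Akr1d1 at chr6:37529923-37530172 on the plus strand and Cyp27a1 at chr1:74713285-74713534 on the plus strand. Capitals mark matches to 5 motifs, searched on both strands.
Cyp8b1: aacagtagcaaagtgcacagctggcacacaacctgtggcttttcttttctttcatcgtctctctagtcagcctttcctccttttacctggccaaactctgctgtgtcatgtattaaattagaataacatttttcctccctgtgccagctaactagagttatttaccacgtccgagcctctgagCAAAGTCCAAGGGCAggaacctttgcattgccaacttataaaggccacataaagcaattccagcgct
Akr1d1: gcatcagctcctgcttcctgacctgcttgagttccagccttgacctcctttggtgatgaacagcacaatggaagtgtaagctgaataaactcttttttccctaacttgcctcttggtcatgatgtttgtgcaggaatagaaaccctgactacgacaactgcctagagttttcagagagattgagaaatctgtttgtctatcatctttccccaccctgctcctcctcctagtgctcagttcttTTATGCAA
Cyp27a1: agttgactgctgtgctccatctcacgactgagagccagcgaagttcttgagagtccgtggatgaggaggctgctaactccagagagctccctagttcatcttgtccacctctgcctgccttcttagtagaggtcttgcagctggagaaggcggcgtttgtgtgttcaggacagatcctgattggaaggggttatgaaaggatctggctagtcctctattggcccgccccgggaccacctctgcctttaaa
The motifs were CAAAGTCCA for HNF4, CAAGGNCA for LRH-1 (Nr5a2), TTATGTAA and TTATGCAA for the D-box bound by Dbp, Tef and Nfil3, and CACGTG for the E-box. The capitals in Cyp8b1 hold an HNF4 match, from -67 to -59 relative to the start, that overlaps an LRH-1 match from -60 to -53, where -1 is the last base before the start. Across 32851 promoter entries of this length, 0.384% held the HNF4 motif and 5.53% the LRH-1 motif. The capitals in Akr1d1 are a TTATGCAA match from -8 to -1, and 0.694% of the entries held that motif, against 0.819% for TTATGTAA and 6.02% for CACGTG. None of the 5 motifs was found in the window of Cyp27a1 or of Hsd3b7. A match describes the letters only.

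The factors of the HNF4 and LRH-1 motifs and of bile acid feedback, singled out after their values were seen, were close to level. Hnf4a, an activator of both Cyp7a1 and Cyp8b1, had log2 ratios between -0.20 and -0.07 on 4 probe sets. Nr5a2 (LRH-1) had 2254 in the antagomir-122 pool and 2166 in the mm-antagomir-122 pool (log2 0.06). Of all genes 5.12% lay past 1.5-fold upwards and 2.62% downwards. Of the 15 regulators listed for the pathway, 1 did so upwards and 0 downwards, with a median of 0.06. The 1 regulator was Onecut1, the hepatocyte transcription factor HNF-6, with 554.0 and 249.3 in the same order of pools (log2 1.15). Its control signal was just above the floor, and its second probe set, with 204.8 and 133.9, was under it. Nr0b2 (SHP) had a log2 ratio of -0.02 and Nr1h4 (FXR) one of 0.18, so the genes of bile acid feedback were within the spread. Prox1, known as a corepressor of Cyp7a1, had 0.42 on the brightest probe set and 0.37 and 0.74 on the others. Nr1i2 (the pregnane X receptor) had 0.36, and Ppargc1a, a coactivator, had -0.22 on the brightest and -0.41 to -0.64 on 4 others.

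Among 16 further enzymes and helpers of bile acid and oxysterol metabolism, 14 had a probe set of their own. Of these, 11 were above the floor. Of the 11, 0 were at least 1.5-fold higher or lower, against 5.12% and 2.62% of all genes. The median of the 11 was -0.07. Acox2, the peroxisomal oxidase of side-chain shortening, had 3444 in the antagomir-122 pool and 4973 in the mm-antagomir-122 pool, 1.44-fold lower (log2 -0.53). The next peroxisomal steps gave -0.23 for Hsd17b4 and -0.22 for Scp2, and Abcd3, a peroxisomal transporter, had 0.20. Amacr belongs to the same series of steps. With it all 4 side-chain enzymes were below 0 as deposited, as were 49.6% of all genes. Of the 4, only Acox2 lay outside the spread of 0.23. When scaled on the hybridization controls, 3 of the 4 were above 0. Probe sets of Scp2 disagreed, from -0.25 to 0.19, and its brightest was above 16000 on both arrays.

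**Figure D3:**
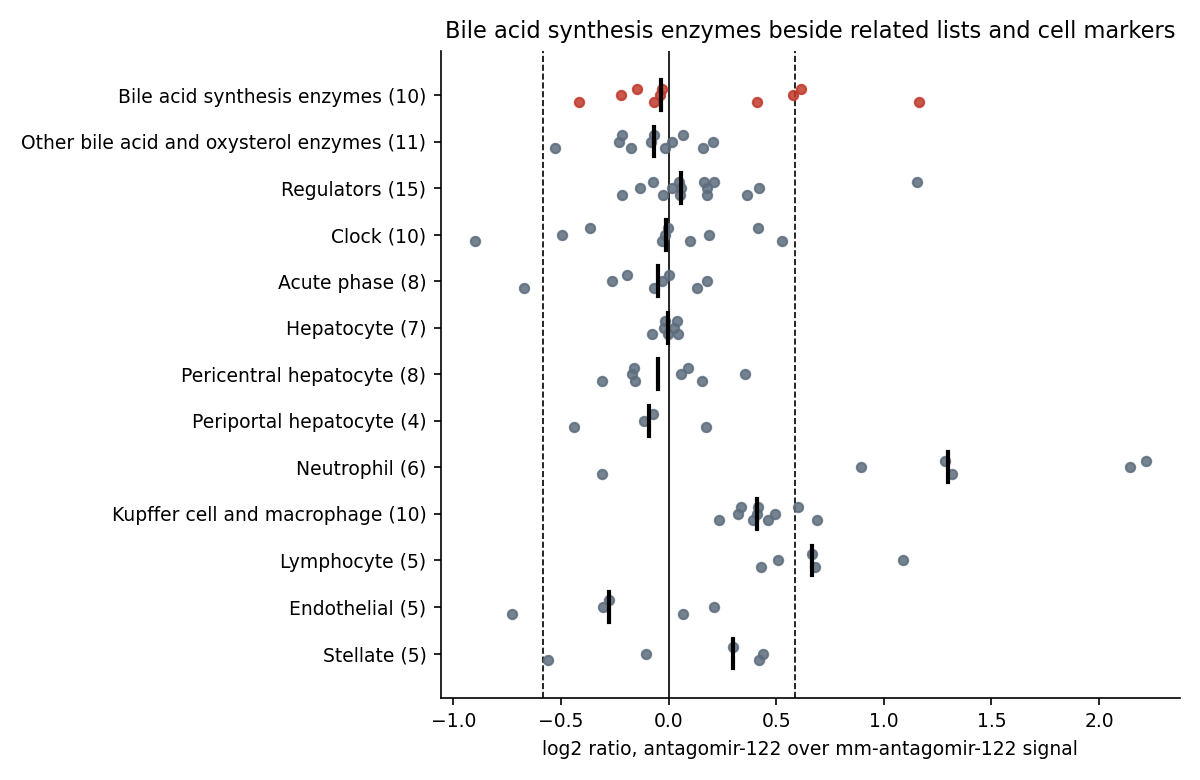
Log2 ratio of the antagomir-122 over the mm-antagomir-122 signal for each gene above the floor, on its brightest probe set, in the list of bile acid synthesis enzymes (red) and in related lists and marker lists (grey), with the number of genes in brackets. Black bars are medians and dashed lines mark 1.5-fold. The enzymes have a median of -0.04 with Cyp8b1 far to the right, and the leukocyte lists lie to the right. Hepatocyte markers sit near 0, 5 of the 7 with signals above 16000 on both arrays, where a difference may not show.

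All of these enzymes are made by hepatocytes, whose markers were bright on both arrays. The 7 markers had log2 ratios from -0.08 to 0.04, but 5 of them (Alb, Apoa1, Ttr, Cps1 and Tdo2) had signals above 16000 on both arrays and may be too bright to show a difference. The other 2, Tat and Cebpa, had -0.02 and -0.08. Pericentral markers had a median of -0.05 (8 genes), or -0.16 over the 5 that were not above 16000 on both arrays. Periportal markers had one of -0.09 (4 of 6 genes, the only 4 with a probe set of their own), or -0.11 over 3. In either list 0 genes were past 1.5-fold. Markers of leukocytes stood higher with antagomir-122. Of all 10003 genes 5.12% were at least 1.5-fold higher. Of 6 neutrophil markers above the floor 5 were, of 5 lymphocyte markers 3 were, and of 10 Kupffer cell and macrophage markers 2 were. The summed signals of these 6, 5 and 10 genes were 8013, 6211 and 61055 in the antagomir-122 pool against 2451, 3654 and 44325 in the mm-antagomir-122 pool. Among the neutrophil markers, Mpo and Ltf had control signals under the floor (164.2 and 197.8). Both passed it only through the antagomir-122 array. Elane went the other way (log2 -0.31). Among the lymphocyte markers, Cd79a had a control signal of 207.5, also under the floor. Ighm had a log2 ratio of 1.09 on its brightest probe set but 0.08 to 0.42 on the others above the floor. With quantile normalization or the mean over probe sets 2 lymphocyte markers were at least 1.5-fold higher. When scaled on the hybridization controls all 5 were. Endothelial and stellate markers had medians of -0.28 and 0.30 (5 genes each), and all 4 cholangiocyte markers with a probe set were under the floor. The endothelial median was the value of Eng on its brightest probe set, and its second probe set had 0.13. With the mean over probe sets the endothelial median was -0.07. No marker was at 0 on either array, but the lowest signal on each array was 0.1, so none could be. The part of cell composition in the enzyme ratios was not tested, and in bulk tissue fewer cells of a type and less RNA per cell cannot be told apart.

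Of the ways of scaling, only quantile normalization and loess correction could change the order of the enzymes, and under both it stayed as deposited. Shifting the arrays by their median or by the spiked controls moves every ratio by the same amount, so it cannot reorder them. The floor settings left every enzyme ratio unchanged. With the mean over probe sets the order did change, and Cyp7a1 (log2 0.44) fell below Cyp7b1 (log2 0.56). Over 11 settings Cyp8b1 ran from 2.22-fold to 2.71-fold higher, Cyp7a1 from 1.36-fold to 1.85-fold and Cyp7b1 from 1.47-fold to 1.80-fold. Akr1d1 was above 0 in all 11 and Cyp39a1 below 0 in all 11, counts in which the floor settings only repeat the deposited values. Scaled on the hybridization controls, however, Cyp39a1 was at -0.14, inside the spread of 0.23. Signs of the near-level enzymes did not hold. Cyp27a1 and Slc27a5 were above 0 in 3 settings, namely quantile normalization, loess correction and scaling on the hybridization controls, and Hsd3b7, Amacr and Baat were above 0 in the last of these alone. Scaled on those controls, Cyp8b1, Cyp7a1, Cyp7b1 and Akr1d1 were all at least 1.5-fold higher. So were 1693 of all 10003 genes, against 512 as deposited, because the scaling raises every ratio.

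**Figure D4:**
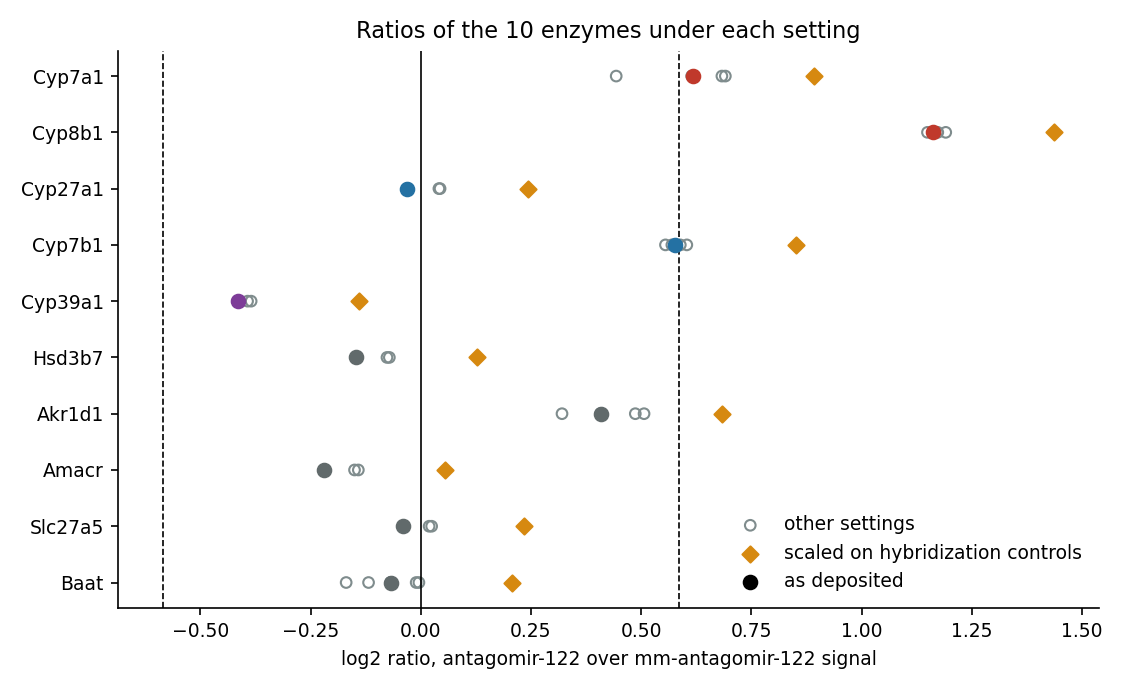
Log2 ratio of the antagomir-122 over the mm-antagomir-122 signal for the 10 enzymes as deposited (filled points, coloured by branch), scaled on the spiked hybridization controls (orange diamonds) and under the other settings (open points). Dashed lines mark 1.5-fold. Cyp8b1 is past 1.5-fold under all settings, Cyp7a1 crosses the line when its probe sets are averaged, and the shift of 0.27 moves the near-level enzymes above 0.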

How the data were processed

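Each group had 1 single-colour Affymetrix array (2 in all), hybridised with cRNA from the pooled liver RNA of 3 mice, and the sample titles gave the groups. The authors deposited linear intensities per probe set, and the submitters' processing notes name MAS5 without a version. The 2% trimmed mean was 500.0 on both arrays, so the values were already scaled. Genes came from the platform annotation: of 45101 probe sets, 34945 had 1 gene, 932 several and 9160 none, and 64 were controls. Gene identifiers of 34741 were found in the RefSeq table of GRCm38.p6, which changed 0 symbols.

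Ratios are log2 values of antagomir-122 over mm-antagomir-122 intensity on the brightest probe set of a gene, with no pseudocount. A probe set was kept where its mean log2 signal reached the 60th percentile of non-control probe sets (a signal of 238). With 1 array per group there was no test and there are no p-values; changes are described against 1.5-fold, and the number of arrays limits the precision. For the measurement spread, a gene's 2 brightest probe sets were compared: the SD of their log2 ratio differences over all such genes was divided by root 2. It leaves out the spread between animals. The step from signals to ratios was tested on simulated data with planted changes. In that simulation the measurement spread was assumed, so its estimate was not tested. Python 3.11.15, numpy 2.4.6, pandas 2.3.3, statsmodels 0.14.6 and matplotlib 3.10.9 were used.

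Alternatives were median centring, quantile normalization, loess correction (span 0.3), scaling on 18 spiked hybridization control probe sets, floors at the 40th and 80th percentiles, signals under the floor set to it, the mean over probe sets, a pseudocount of 16.0, thresholds of 1.4-fold and 2-fold, and dropping probe sets suffixed _s, _x or _a. Genes named were all 10 enzymes and, in each pathway list, those past 1.5-fold or among the 4 largest changes. Hnf4a, Nr5a2, Nr0b2 and Nr1h4 were added after their values were seen. The 4 side-chain enzymes were grouped outside the planned lists. Marker lists are given by counts, and single markers are named where they limit a count. Leaving genes above 16000 on both arrays out of list medians was added after seeing the data. The enzymes and the lists were chosen with earlier results of these data known. List genes with no probe set of their own were not used here.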

Additional observations from a re-analysis of the deposited data

How the results depend on the processing

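No paired analysis was possible because each group has 1 array and the labels give no replicate numbers. The count of enzymes at least 1.5-fold higher was 2 as deposited, 4 when scaled on the hybridization controls, 3 with quantile normalization, with loess correction and at a 1.4-fold threshold (Cyp7b1 then passed), 1 with the mean over probe sets (Cyp7a1 was then 1.36-fold higher) and 1 at a 2-fold threshold. With scaling on the hybridization controls 1693 genes were at least 1.5-fold higher and 63 lower, against 512 and 262 as deposited. With a floor at the 40th percentile these counts were 1163 and 531, and with a floor at the 80th percentile 184 and 98. The count of enzymes at least 1.5-fold lower was 0 under all settings. The median of the enzymes ran from -0.04 to 0.24, and was above 0 with quantile normalization (0.03), loess correction (0.03) and the hybridization controls (0.24). The classic minus alternative difference ran from 0.54 to 0.62, and a setting that adds the same amount to every ratio cannot move it. Of 99 values for single enzymes under an alternative, all 99 lay within the spread of 0.28 from the deposited value. Much of this was fixed beforehand. The floor settings left the ratio of every enzyme unchanged, and median centring and the pseudocount left it nearly so. Dropping suffixed probe sets changed only Baat among the enzymes that kept a value. Scaling on the hybridization controls adds 0.27 to each ratio, just under 0.28 but past the spread of 0.23 for genes this bright. Without suffixed probe sets Hsd3b7 had no value. Differences under the measurement spread, and any difference between animals, cannot be resolved with 1 pooled array per group.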

Other observations

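Clock genes, several of which set the daily rhythm of Cyp7a1, were uneven. Of 13 listed, 10 were above the floor, with a median log2 ratio of -0.01. Nr1d1 (REV-ERB alpha, a clock repressor) had 765.3 in the antagomir-122 pool and 1430 in the mm-antagomir-122 pool, 1.87-fold lower (log2 -0.90), on its single probe set. Dbp, the D-box activator, had -0.49 and -0.48 on its 2 probe sets. Nfil3, which represses D-box genes, had 323.9 and 224.7 in the same order of pools, the second under the floor, and Per2 had 0.41 and -0.21 on the 2 probe sets above it. The time of day of sampling is not given in the sources used here, and the part of it in the enzyme ratios was not tested.

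Cyp7b1 is known as male-predominant in mouse liver, and sex-biased genes were set beside it. Of 8 male-biased genes, 5 had a probe set of their own and 2 were above the floor. These were Slco1a1, with 469.5 in the antagomir-122 pool and 256.1 in the mm-antagomir-122 pool, and C6, with a log2 ratio of 0.14. Hsd3b5 had signals of 7.3 and 6 in the same order. The 3 female-biased genes above the floor, Cyp2b9, Sult3a1 and Acot3, had -0.02, -0.32 and -0.37. Cyp2b9 had signals of 9974 in the antagomir-122 pool and 10146 in the mm-antagomir-122 pool, while Cyp3a44 was under the floor. The sex of the mice is not given in the sources used here, and its part in the Cyp7b1 ratio was not tested. Acute phase genes, whose rise in inflammation is known to go with lower bile acid synthesis, could hardly be read, since 6 of the 8 had signals above 16000 on both arrays. Of the other 2, Orm2 had 10728 in the antagomir-122 pool and 17090 in the mm-antagomir-122 pool, 1.59-fold lower, and Crp had a log2 ratio of 0.13. The median of all 8 was -0.05, and over these 2 it was -0.27.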
